A study of Ovis aries with 32 samples.

Results

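The 200 genes described here were chosen by how closely their level in liver followed a property of the liver library, namely the share of uniquely aligned fragments that HTSeq placed outside the annotated genes of sheep. They are called members. A gene could be chosen if it reached a CPM of 10 (the counts on a gene for every 1000000 counts on all genes of the library) in 9 or more liver libraries, and if its mean level in liver and in muscle differed by no more than 3 on the log2(CPM + 1) scale. Of 27054 annotated genes, 5234 met these level criteria, and the 200 with the highest Spearman correlation between liver CPM and the share were taken, with ties ordered by identifier. A run of 37 identifiers at the start of the annotation was left out by the rule.

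The 16 lambs were crosses of Appenninica and Sarda sheep, 8 on each of 2 diets, and each gave a liver and a muscle library. CTRL lambs received alfalfa hay and concentrate with empty cyclodextrins, the carrier, and EO lambs received the same feed with the cyclodextrins loaded with equal parts of 3 essential oils, from dill seed, cinnamon bark and eucalyptus leaves. This gave 32 libraries in 4 groups of 8, namely liver CTRL, liver EO, muscle CTRL and muscle EO, from lambs of 154 to 190 days of age. The diets held males and females, but the labels do not say which lamb was of which sex, so all values are over both. With 1 library per lamb and tissue, the spread given is that between lambs.

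HTSeq assigns an aligned fragment to a gene when it overlaps an annotated feature of that gene, and otherwise adds it to a counter of fragments on no feature. Fragments from introns, from unannotated transcript ends, from unannotated genes and from DNA between genes can all fall into that counter. Poly-A libraries contain some of each, in amounts that vary with the RNA, the library and how complete the annotation is. The files do not separate these sources, so the share cannot be read as strictly intergenic, and it is called here the share outside annotated genes. Genes carry Ensembl identifiers without symbols, and none of the 35057 sheep genes in the RefSeq table used for names carried an Ensembl identifier. Members are therefore named by identifier for the first 2 and otherwise by rank, with rank 1 for the highest correlation. What each member encodes, and whether liver and muscle markers are present in the labelled tissues, was for that reason not examined.

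Counts on genes ranged from 1460920 to 6689488 per liver library and from 2572638 to 14035050 per muscle library. The share outside annotated genes ran from 23.6% to 48.6% in liver and only from 27.2% to 30.5% in muscle. In liver it was 35.2% ± 10.2 in CTRL and 32.5% ± 7.31 in EO lambs (SD, n = 8 each), a difference of -2.71 percentage points that lay within the spread between lambs (two-sided exact permutation test over 12870 assignments, p = 0.545). Over the 16 liver libraries the share rose together with the percent of recorded alignments that were not unique (r = 0.939, rho = 0.956, permutation p = 1e-05 for both, the smallest that 100000 permutations can give) and with the percent of gene counts on the 37 left-out identifiers (r = 0.914, rho = 0.956). Benjamini-Hochberg adjusted over 8 measures of the libraries, these permutation p-values were 8e-05 for r and 4e-05 for rho. Without the 2 libraries farthest from the median, r was 0.936 and 0.895, and rho within each diet was 0.952 or higher for both measures. For the total count on genes r was -0.345 and rho -0.312 (permutation p = 0.193 and 0.24), for age r was -0.272 and rho -0.24 (p = 0.306 and 0.368), and for the share of the same lamb's muscle library r was -0.207 and rho -0.194 (p = 0.442 and 0.471). The share, the not-unique percent and the percent on the 37 identifiers thus moved as 1 gradient across these livers, and the part of each in the members' levels cannot be told apart.

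All 200 members were detected in all 32 libraries. The fewest counts of any member were 16 in a liver library and 5 in a muscle library. Together the members took 1.68% of the counts on genes in the liver of lowest share, that of CTRL lamb 1, and 5.04% in the liver of highest share, that of CTRL lamb 8. From the lowest share to the highest, the liver libraries stood at 1.68% (CTRL 1), 1.69% (EO 15), 1.78% (CTRL 7), 1.81% (CTRL 5), 2.17% (EO 10), 2.19% (EO 12), 2.15% (EO 9), 2.73% (EO 11), 2.60% (CTRL 4), 2.89% (EO 13), 3.37% (CTRL 6), 4.30% (CTRL 3), 4.25% (EO 16), 4.42% (EO 14), 4.73% (CTRL 2) and 5.04% (CTRL 8). Libraries of the 2 diets were interspersed along this series, with CTRL livers at both ends. The 5 livers of highest share, those of CTRL lambs 2, 3 and 8 and EO lambs 14 and 16, all had sums of 4.25% or more, and no other liver exceeded 3.37%.

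In muscle the members took 3.26% to 6.10% of the counts on genes. The sum was 4.47% ± 0.740 in CTRL and 4.45% ± 0.650 in EO muscle (SD, n = 8 each), against 3.16% ± 1.39 in CTRL and 2.81% ± 1.01 in EO liver. Every muscle library but that of EO lamb 11, at 3.26%, stood above the 11 livers with sums up to 3.37%, and the muscle values overlapped those of the 5 livers of highest share. The most counted member, rank 131, took 0.218% to 0.536% of counts in liver and 0.659% to 1.65% in muscle. Without it the members still summed to 1.45% in the liver of lowest share and 4.51% in that of highest share.

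**Figure D1:**
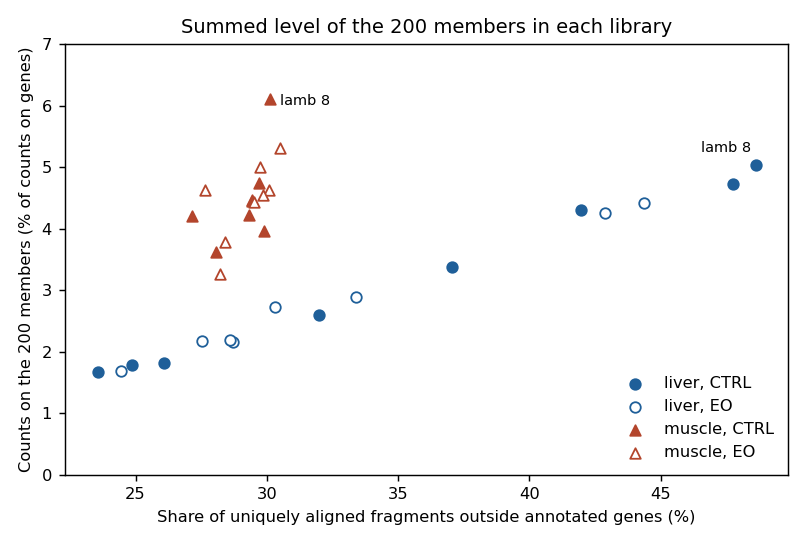
Percent of counts on genes that fell on the 200 members, against the percent of uniquely aligned fragments outside annotated genes, for each of 32 libraries (blue circles liver, red triangles muscle, filled CTRL, open EO). The liver sum climbed from 1.68% to 5.04% over shares of 23.6% to 48.6%, whereas muscle held sums of 3.26% to 6.10% within shares of 27.2% to 30.5%.

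The correlation that chose the members ran from 0.921 to 0.994 with a median of 0.944, and is a description without a test. Over the 5234 genes of the level criteria the median was -0.047, with 2550 of them positive. At the limit 14 genes were tied, of which 6 fell inside and 8 outside by order of identifier. Ranks 198, 199 and 200, just inside, had liver means of 63.4, 155 and 64.0 CPM. The 3 genes just outside had means of 19.8, 14.7 and 485 CPM, and their rises were of the same order as those inside (log2 of 2.73, 2.19 and 1.44 from the 4 lowest to the 4 highest shares, against 1.26, 1.35 and 1.94). The limit at 200 thus separated genes with the same correlation.

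ENSOARG00000020260, rank 1, had a correlation of 0.994. In CTRL livers it stood at 7.59 (lamb 1), 50.2 (lamb 2), 38.1 (lamb 3), 16.0 (lamb 4), 10.7 (lamb 5), 20.3 (lamb 6), 10.2 (lamb 7) and 72.3 CPM (lamb 8). In EO livers it stood at 12.6 (lamb 9), 10.5 (lamb 10), 12.6 (lamb 11), 12.0 (lamb 12), 15.1 (lamb 13), 46.5 (lamb 14), 8.43 (lamb 15) and 39.7 CPM (lamb 16). The 5 livers of highest share held 38.1 CPM or more and the other 11 held 20.3 CPM or less, with both diets on either side. Its mean rose from 9.23 CPM in the 4 livers of lowest share to 52.2 CPM in the 4 of highest share, 5.65-fold. Its muscle level, 10.0 to 18.8 CPM with a mean of 13.0, lay above the 2 lowest livers and below the 6 highest.

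ENSOARG00000009094, rank 2, had a correlation of 0.991 and a higher and flatter course. Its level in CTRL livers was 126, 354, 214, 173, 133, 224, 127 and 381 CPM for lambs 1 to 8. Its level in EO livers was 144, 136, 150, 144, 156, 278, 121 and 245 CPM for lambs 9 to 16. The mean of the 4 livers of lowest share was 127 CPM and that of the 4 of highest share 314 CPM, 2.48-fold. In muscle it ranged from 183 to 267 CPM with a mean of 224, so 10 livers stood below every muscle library and the 3 of highest share above every one.

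**Figure D2:**
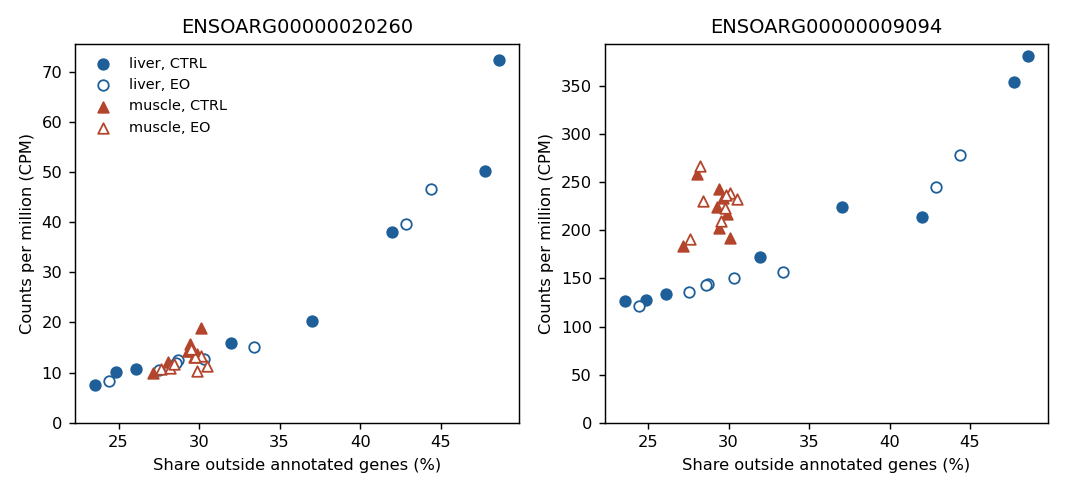
CPM of the 2 members with the highest correlation, against the share outside annotated genes, in 16 liver (blue circles) and 16 muscle libraries (red triangles), filled for CTRL and open for EO. The left gene went from 7.59 to 72.3 CPM in liver with muscle at 10.0 to 18.8, and the right gene from 121 to 381 CPM in liver with muscle at 183 to 267.

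Ranks 3 to 8 were of moderate to high level. Rank 3 ranged from 59.7 to 474 CPM over the livers and from 246 to 508 CPM in muscle. Rank 5 ranged from 154 to 740 CPM in liver and from 366 to 883 CPM in muscle. For all of ranks 3 to 8 except rank 7 the mean of the 16 livers lay below the mean of the 16 muscle libraries. Rank 7 had a liver mean of 133 CPM and a muscle mean of 116 CPM, and its liver range of 46.9 to 302 CPM contained its muscle range of 93.7 to 139 CPM.

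The members spanned a wide range of levels. Mean liver CPM ran from 12.8 (rank 82) to 3597 (rank 131) with a median of 66.2, against a median of 26.9 for the genes of the level criteria. Mean muscle CPM ran from 4.39 to 11160 with a median of 51.7, against 31.8 for those genes. The 5 members with the highest liver means were ranks 131, 45, 108, 35 and 165. Rank 131 ranged from 2178 to 5363 CPM in liver, below every one of its muscle values of 6590 to 16491 CPM. Rank 165 was the member of these 5 whose liver mean, 685 CPM, exceeded its muscle mean of 495 CPM. CPM is not corrected for gene length, so these levels order counts and not transcripts.

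From the 4 livers of lowest share to the 4 of highest share, the mean level of a member rose between 1.53-fold and 8.03-fold with a median of 2.89-fold. A rise of at least 2-fold was found for 185 members and of at least 4-fold for 39, where 14.3% and 1.32% of the genes of the level criteria rose that much. The 3 largest rises on the log2(CPM + 1) scale were those of rank 53, from 48.6 to 390 CPM, rank 129, from 11.3 to 84.4 CPM, and rank 97, from 7.60 to 58.0 CPM. The 3 smallest were those of rank 95, from 135 to 206 CPM, rank 108, from 726 to 1181 CPM, and rank 161, from 123 to 201 CPM. In all 200 members each of the 4 highest livers stood above each of the 4 lowest, which held for 25.9% of the genes of the level criteria. These counts come from the values that chose the members, so they describe size only.

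The rise ran along the whole range of the share. Between the 4 livers of lowest share and the 8 in the middle the median step was 0.65 on the log2(CPM + 1) scale, and between those 8 and the 4 of highest share it was 0.84. The upper step was the larger one for 148 of 200 members, but it also spanned more of the share, 13.5 percentage points between the mean shares against 7.71. Per percentage point the median rise was 0.085 in the lower step and 0.063 in the upper one, and 162 members rose more per point in the lower step. Within the 10 livers of lowest share the median correlation with the share was 0.879 (range 0.697 to 1), and within the 6 of highest share it was 0.714, with 13 members below 0. Both subsets are among the livers that chose the members, so high values there follow from the choice.

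Members differed in which liver was highest. CTRL lamb 8 was the highest liver for 82 members, CTRL lamb 2 for 45, EO lamb 16 for 36, EO lamb 14 for 26 and CTRL lamb 3 for 11. CTRL lamb 1 was the lowest for 75, EO lamb 15 for 72, CTRL lamb 7 for 34, CTRL lamb 5 for 16 and EO lamb 10 for 3. No other liver was highest or lowest for any member. The liver of EO lamb 14 had a share of 44.4%, the fewest counts on genes of any library (1460920), a not-unique percent of 55.7% and 12.5% of its counts on the 37 identifiers. The liver of CTRL lamb 8 had a higher share of 48.6% but lower values of the other measures, 49.7% and 9.80%. Of the 200 members 139 were higher in CTRL lamb 8 than in EO lamb 14 (46.0% of the genes of the level criteria), and 114 were higher in CTRL lamb 2 than in EO lamb 14 (41.2%). EO lamb 11 had a lower share than CTRL lamb 4, 30.3% against 32.0%, but a higher not-unique percent, 35.3% against 29.3%, and 111 members (55.5%) were higher in EO lamb 11, as were 54.3% of the genes of the level criteria. These livers all took part in the choice of members, so the counts do not weigh the share against the other measures. Members had a median correlation of 0.924 with the not-unique percent and of 0.924 with the percent on the 37 identifiers, and 43 and 42 members correlated more closely with these than with the share, on which they were selected. The median correlation with the total count on genes was -0.282, negative for all 200.

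How the counts are scaled set the size of the rise. Relative to the counts on genes, the median rise of the members was 1.497 on the log2 scale and that of the genes of the level criteria -0.05. With TMM library sizes these were 1.51 and -0.04, and with the 37 identifiers left out of the total they were 1.63 and 0.09. Relative to the uniquely aligned fragments, counted on a gene or not, the members' median was 1.02 against -0.50, and all 200 members still rose. Relative to everything HTSeq recorded, which adds 1 for each place of a fragment that aligns to several, the members' median was 0.35 against -1.08, and 166 of 200 rose. Under this last total each of the 4 highest livers stood above each of the 4 lowest for 81 members, and for 2.66% of the genes of the level criteria. Another total moved the median of the members and that of the genes of the level criteria by similar amounts. Why some members no longer rose under the last total was not tested. That the members stood above the other genes throughout follows from their choice.

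Variation between livers was larger than between muscles. The coefficient of variation of a member had a median of 46.6% over 16 livers and 18.6% over 16 muscle libraries, and was larger in liver for 199 of 200. For the genes of the level criteria the medians were 30.6% and 18.6%, larger in liver for 84.8%. The highest liver was a median of 4.00 times the lowest, and the highest muscle library 1.96 times the lowest. The 200 genes of lowest correlation had medians of 51.8% in liver and 21.2% in muscle. The genes of the level criteria thus also varied more in liver. Only the excess of both lists over those genes in liver follows from their choice on the liver values. The members' median in muscle was that of the genes of the level criteria.

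**Figure D3:**
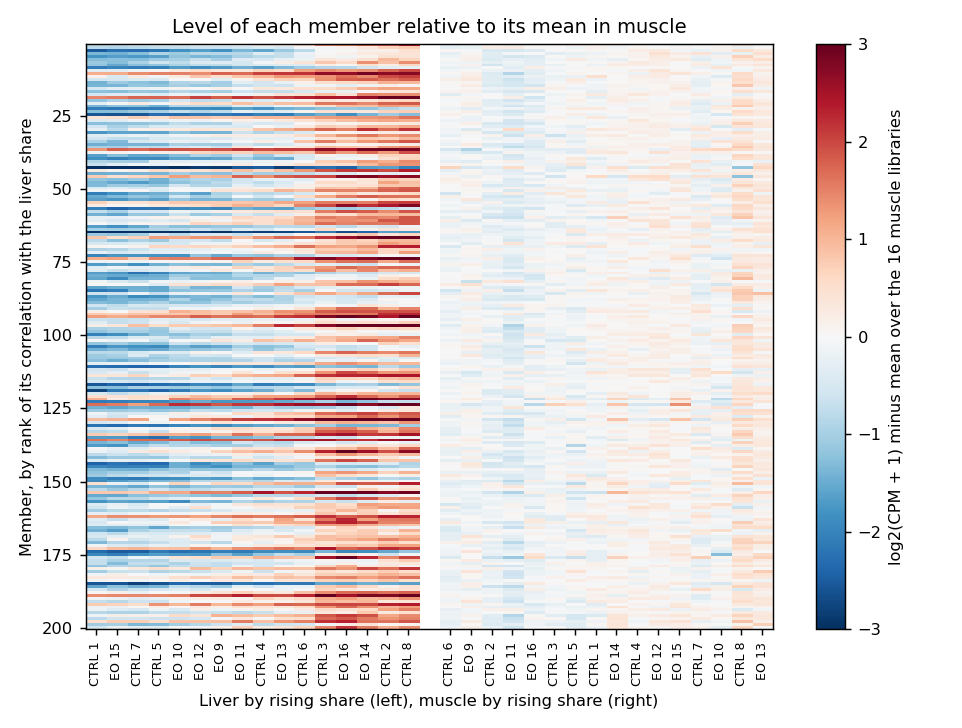
Each row is a member by rank and each column a library, liver on the left and muscle on the right, both in order of rising share, coloured by log2(CPM + 1) minus the member's mean over 16 muscle libraries (colours stop at -3 and 3). In liver most rows pass from blue to red as the share rises, in step with the 124 members that went from below to above their muscle mean, while muscle columns stay near 0.

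The muscle level fell inside the liver range for most members. In the 4 livers of lowest share 167 of 200 members stood below their muscle mean, and in the 4 of highest share 43 did. For the genes of the level criteria these shares were 59.9% and 58.0%. The median of a member against its muscle mean was -0.71 on the log2(CPM + 1) scale in the 4 lowest livers and 0.82 in the 4 highest. Crossing from below to above was found for 124 members (62%), against 14.5% of the genes of the level criteria. These livers also chose the members as genes that rise, so the excess over the other genes follows from the choice. Over all 16 livers 107 members had a higher mean than in muscle and 93 a lower one, so the direction of a comparison between tissues depended on which livers entered it. In these bulk tissues fewer cells of a type and less RNA per cell cannot be told apart.

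The members farthest toward muscle did not cross. Rank 65 had 61.8 to 206 CPM in liver and 507 to 882 CPM in muscle, a log2 ratio of means of -2.62, and ranks 43, 185 and 174 had ratios of -2.60, -2.11 and -1.94. At the other end, rank 129 had 5.88 to 119 CPM in liver and at most 11.5 CPM in muscle, a ratio of 2.50. Ranks 189, 124 and 154 followed with ratios of 2.27, 2.26 and 2.23. Rank 129 was thus among the members with the largest rises and the highest ratio to muscle.

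**Figure D4:**
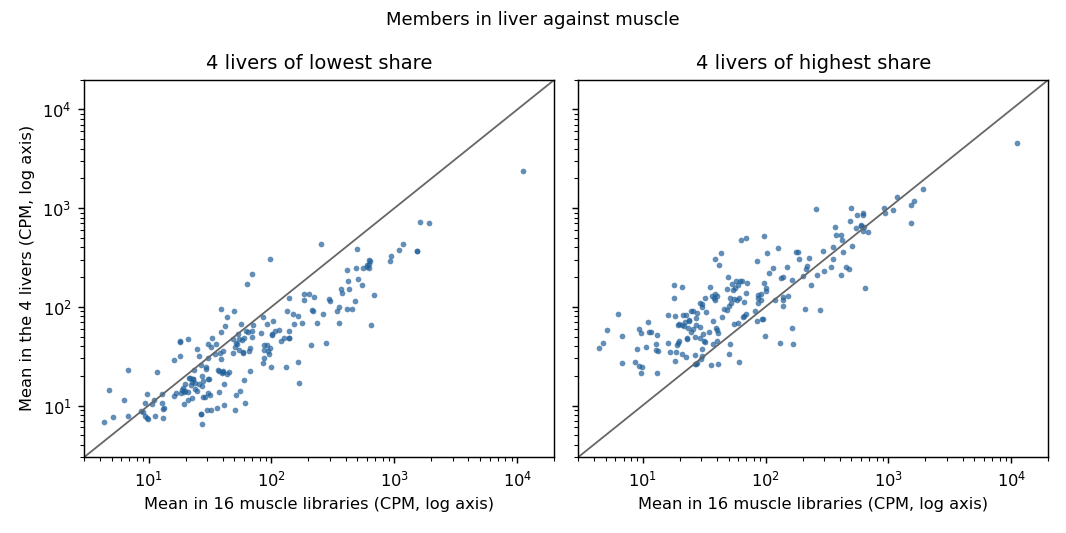
Mean CPM of each of the 200 members in the 4 livers of lowest share (left) and of highest share (right) against its mean in 16 muscle libraries, on log axes, with the line of equal level. On the left 167 members lie below the line, and on the right 43 do.

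The rise with the share was present within each diet. The correlation with the share had a median of 0.952 over the 8 CTRL livers (range 0.81 to 1) and of 0.929 over the 8 EO livers (range 0.738 to 1). All 200 members were positive in both diets, as were 41.7% of the genes of the level criteria. The correlation was 0.9 or higher for 176 members in CTRL and 153 in EO. These are subsets of the libraries that chose the members.

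Diet was tested in liver across 11570 genes with edgeR's quasi-likelihood test and Benjamini-Hochberg adjustment. No member and no other gene had an adjusted p lower than 0.05 (0 of 200 members, 0% of genes tested, smallest adjusted p = 0.646), and DESeq2 also gave 0. Before adjustment 0 members had a p lower than 0.05 in edgeR's test, whereas 271 genes, 2.34%, did. ENSOARG00000020260 had 28.2 ± 23.3 CPM in CTRL and 19.7 ± 14.7 CPM in EO livers (SD, n = 8 each), a log2 fold change of -0.59 with a standard error of 0.51 (edgeR adjusted p = 1). ENSOARG00000009094 had 216 ± 101 and 172 ± 57.0 CPM, a log2 fold change of -0.39 with a standard error of 0.29 (edgeR adjusted p = 1). For both, the difference was smaller than the spread within either diet.

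The members nevertheless leaned toward CTRL as a group. The mean CPM was higher in CTRL livers for 162 of 200, beside 51.8% of the genes of the level criteria. The median log2 fold change of EO against CTRL was -0.23 with 21 members above 0. Over all genes tested it was -0.01, with 5576 of 11570 above 0. The median standard error of a member was 0.33. The mean share was 2.71 percentage points lower in EO livers, and members were chosen to rise with the share. The parts of the share and of diet in this lean cannot be told apart. Members also moved together across the livers, so these counts are not counts of independent genes. With the share as a covariate, which uses the same values that chose the members, the median was 0.06 with 138 members above 0, beside 5767 of 11570 genes. In that fit 17 members had an unadjusted p lower than 0.05, all higher in EO, beside 4.68% of genes higher in EO at that level, and 0 members or other genes passed adjustment. The size of the lean depended on single lambs, while the median stayed negative whichever lamb was left out. Without CTRL lamb 8 the median was -0.07 with 69 members above 0, without CTRL lamb 2 it was -0.08, and without EO lamb 16 it was -0.37.

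In the fit without covariates, muscle showed no such lean between the diets. The median log2 fold change of the members was -0.01 with 92 of 200 above 0. No member passed adjustment among 11757 genes tested with edgeR (0%, DESeq2 0), and 4 members had an unadjusted p lower than 0.05, 2% of 200, beside 402 genes, 3.42%. With age as a covariate the members' median in muscle was -0.05 with 65 of 200 above 0, beside 6192 of 11757 genes. The interaction of diet and tissue, tested with edgeR over all 32 libraries and 13020 genes, gave 0 members and 0 genes after adjustment. Before adjustment 1 member (265 genes, 2.04%) had a p lower than 0.05. The median interaction of the members, the change with EO in muscle minus that in liver, was 0.24 with 183 above 0. Over all genes tested it was 0.02, with 6879 of 13020 above 0. The members' value includes their lean in liver, so it is not separate evidence of a diet difference between the tissues.

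The muscle libraries did not enter the choice of members except through their mean level, so they allowed a test of whether the members follow the share in other samples. The range of the share was much narrower there, 27.2% to 30.5%. Fitted on each muscle library's own share with edgeR, 0 of 200 members and 0 of 11757 genes had an adjusted p lower than 0.05, and DESeq2 gave 3 genes, none of them members. Before adjustment 19 members (9.5%) had a p lower than 0.05 and all 19 rose with the share, beside 351 genes rising, 2.99%, and 723 genes in either direction, 6.15%. The members' slope had a median of 0.076 on the log2 scale per percentage point, with 178 of 200 above 0. The median standard error of a member's slope was nearly as large, 0.068. Members moved together across the muscle libraries, with a median Spearman correlation of 0.326 between pairs. Counts of members in muscle are therefore not counts of independent genes. Over all genes tested the median slope was 0.00013, and over the genes of the level criteria it was 0.0091, with 2847 of 5223 above 0. In liver, where the slope is a description, the median was 0.077 (range 0.037 to 0.145). The genes with the lowest correlation in liver, also 200, had a median slope in muscle of -0.067, with 28 of 199 above 0.

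Rank 37 had the largest slope in muscle among the members, 0.34 with a standard error of 0.088, which did not pass adjustment (edgeR unadjusted p = 0.00089, adjusted p = 0.654). Its level was 2.96 to 10.9 CPM in muscle and 17.9 to 56.2 CPM in liver. The lowest slope was that of rank 83, -0.11 with a standard error of 0.065. ENSOARG00000020260 had a slope of 0.11 with a standard error of 0.074, and ENSOARG00000009094 one of -0.013 with a standard error of 0.05. The 2 members that followed the share most closely in liver thus had slopes in muscle within 2 standard errors of 0. Across the 200 members the slopes in liver and in muscle had r = 0.291 and rho = 0.299, and across 5223 genes of the level criteria r = 0.481 and rho = 0.506, a description over genes that share their libraries.

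The median slope in muscle stayed positive when each lamb was left out in turn, from 0.053 without lamb 8 to 0.112 without lamb 6, with 171 to 180 members above 0 and 11 to 39 of them past an unadjusted p of 0.05. With age as a covariate, an alternative chosen after the data were seen, the median was 0.054, with 173 members above 0 and 8 with an unadjusted p lower than 0.05.

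The share in the liver of a lamb was also set against the members' levels in the muscle of that lamb. edgeR gave 0 members and 0 genes after adjustment (0%), and DESeq2 gave 0. Before adjustment 5 members had a p lower than 0.05, 2 rising and 3 falling, which is 2.5% of members, beside 619 genes, 5.26%, and 304 rising, 2.59%. The median slope was 0.0043 with 147 of 200 members above 0, and 0.0018 over the genes of the level criteria, with 3011 of 5223 above 0. Without lamb 8 the members' median was -0.0027 with 69 above 0, beside 2673 of 5223 genes of the level criteria above 0. The sign thus rested on that lamb, and no member's slope passed adjustment with or without it.

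**Figure D5:**
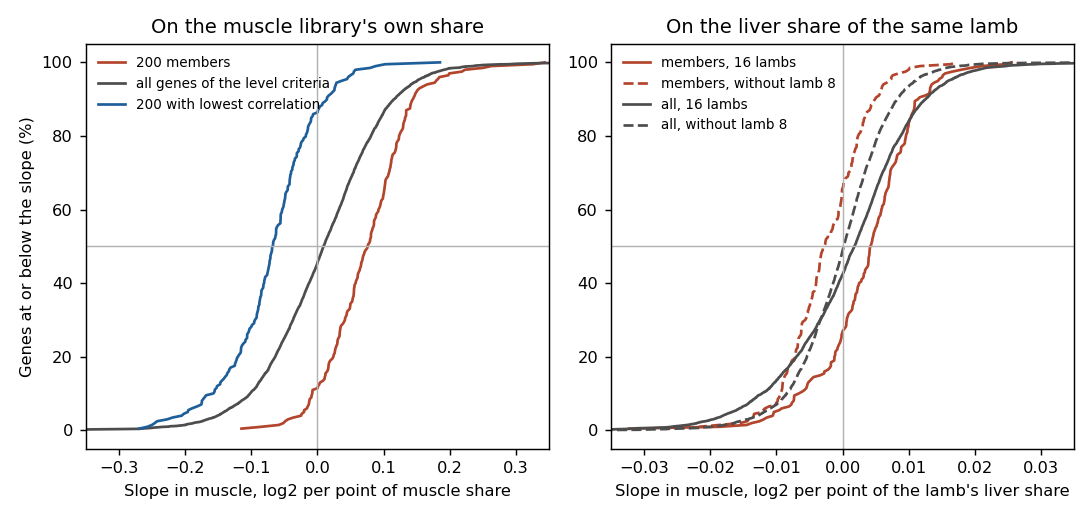
Cumulative percent of genes by edgeR slope in muscle. On the left, slopes on the muscle library's own share for the 200 members (red, 178 above 0), all 5223 genes of the level criteria that could be fitted (grey) and the 200 genes of lowest correlation in liver (blue), and on the right, slopes on the liver share of the same lamb with 16 lambs (solid) and without lamb 8 (dashed), where the members' median went from 0.0043 to -0.0027.

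Members also moved together in muscle, less closely than in liver. Over all 19900 pairs the median Spearman correlation was 0.915 in liver, where it follows from the choice, and 0.326 in muscle, where 78.5% of pairs were positive. Pairs among the genes of the level criteria had a median of 0.097 in muscle with 60.1% positive, and pairs among the 200 genes of lowest correlation one of 0.338 with 80.7% positive. Without lamb 8 the members' median in muscle was 0.293. Pairs of a member with one of the 200 genes of lowest correlation had a median of -0.9 in liver, and of -0.088 in muscle with 59.2% negative. Without lamb 8 this median in muscle was -0.025. Pair by pair the 2 lists were thus far less opposed in muscle than in liver, although their median slopes on the muscle share had opposite signs.

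The gradient of library measures seen in liver did not appear in the same form in muscle. With the muscle library's own share the members had a median correlation of 0.443, positive for 194 of 200, and the genes of the level criteria one of 0.179, positive for 70.0%. With the percent of counts on the 37 identifiers the members' median was 0.924 in liver and -0.238 in muscle, where 157 of 200 were negative (53.9% of the genes of the level criteria). With the not-unique percent it was 0.924 in liver and -0.312 in muscle, where 162 were negative (52.9% of the genes of the level criteria). The muscle library of CTRL lamb 5, with 0 recorded alignments that were not unique, was left out of the last value. With age the median was -0.264 in muscle, negative for 166 members (56.5% of the genes of the level criteria), and -0.187 in liver, negative for 197 (41.5%). In muscle the 200 genes of lowest correlation had medians of the other sign, 0.326 with the 37 identifiers, 0.379 with the not-unique percent and 0.161 with age. All of these are descriptions over 16 libraries (15 for the not-unique percent in muscle) that share the same lambs. Leaving out lamb 8, the youngest lamb, the members' muscle medians were 0.425 for the share, -0.130 for the 37 identifiers and -0.195 for age. Those of the 200 genes of lowest correlation were then 0.225 for the 37 identifiers and 0.038 for age. For the share their median was 0.018 without lamb 8 and -0.091 with it.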

How the data were processed

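RNA was extracted from liver and muscle of 16 lambs and sequenced as poly-A libraries of read pairs. Per the labels and the study's methods, reads were checked with FastQC, trimmed with Trimmomatic 0.33 and aligned to the Ovis aries v.3.1 assembly with STAR 2.4.0.1, before HTSeq 0.6.1 counted them on Ensembl genes. The HTSeq mode, feature type and strand setting are not given in the sources used here. The authors deposited raw counts per library for 27054 genes and 5 HTSeq counters, without normalization. The counters were not tested as genes and stayed out of the library sizes of the fits. Counters entered some of the other totals used for scaling, and the share described here, which some fits used as a covariate. The share is the no-feature counter divided by the sum of gene counts, no-feature and ambiguous fragments.

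Within a tissue, genes that reached 1 CPM in a minimum of 9 libraries were fitted in edgeR 4.0.16 (R 4.3.3, TMM, quasi-likelihood test, Benjamini-Hochberg adjustment over all genes tested, threshold 0.05), in place of the DESeq2 model of the study. Terms with sex were not fitted because the labels give no sex per lamb. DESeq2 1.42.0, other library sizes, no filter, covariates, a replicate block and leaving out each lamb were alternatives. Some were chosen after the data were seen and are named so. Values over genes used a pseudocount of 1 CPM, and permutation tests SciPy 1.17.1 in Python 3.11.15. The fits were tested on simulated data.

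The members, lists and tests were chosen with earlier results of these data known. The rule for naming took the 8 members with the highest correlation, the 5 with the highest liver mean, the 4 with the highest and 4 with the lowest ratio of liver to muscle, the 3 with the largest and 3 with the smallest rise, 3 on each side of the limit and any member past adjustment, given here by rank. Ranks 37, 82 and 83 were named after their values were seen. Planned lists of marker and pathway genes and of promoter letters were not run, since identifiers could not be matched to symbols. Liver and muscle were paired by the sample number in the labels, which gives the same diet and age in both tissues. Over 10307 genes, their deviations from group means correlated by 0.109 on average, against -0.0163 for different lambs of the same diet. The correlation within the lamb was the best one for only 5 lambs. The pairing therefore rests on the labels, and these values do not settle it for each lamb.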

Additional observations from a re-analysis of the deposited data

Results flagged for a closer look

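In 20 groups of 8 libraries, each for 1 measure, the highest or the lowest library was compared with the other 7, where chance flags about 1 in 20 groups. In muscle of CTRL lambs the members took 6.10% of counts on genes in lamb 8, far above the other 7 libraries of the group, which held at most 4.74%. This lamb was the youngest at 154 days, and its liver had the highest share outside annotated genes of all, 48.6%. Its muscle share, 30.1%, was within the range of all muscle libraries. The muscle library of CTRL lamb 5 had no entry in HTSeq's counter of not-unique alignments (0%), where all the other muscle libraries had 30.7% or more of what was recorded. Its members took 4.46% of counts on genes, inside the range of its group. The part of these features in the members' levels was not tested.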

How the results depend on the processing

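The list itself changed with the rule, and the sign of some of the members' medians changed with the fit. Of the 200 members 59 were chosen again when the share was taken over everything HTSeq recorded, 101 with the 8 CTRL livers only and 105 with the 8 EO livers only, where the cause was not tested. TMM library sizes kept 158, Pearson's correlation of log2(CPM + 1) 140, a minimum of 5 CPM 190, and CPM without the 37 identifiers, chosen after the data were seen, 180. Leaving out 1 lamb kept 163 to 181, and 126 members were in all 16 such lists. With DESeq2 in place of edgeR 1 gene passed in the interaction of diet and tissue and 3 genes, all falling, followed the muscle share, none of them members and the cause not tested. No member passed adjustment in any fit run, with other library sizes, without the low-count filter, with age, diet or the share as covariates, or with a lamb left out. Leaving out lambs, the members' median log2 was -0.377 to -0.0688 for diet in liver, 0.0526 to 0.112 for the muscle share and -0.0027 to 0.0095 for the liver share of the lamb in muscle, with 0 genes called each time. With both shares in 1 fit, also chosen after the data were seen, the latter 2 were 0.0818 and 0.0058. With the share as a covariate the members' median for diet in liver was 0.0612. With a replicate block for the lamb, pairing its 2 tissues, the interaction gave 0 genes. The members' median was then 0.16 with 171 above 0, beside 6472 of 13020 genes. The lowest count of a member in any library had a median of 105 in liver and 119 in muscle, and was at its smallest 16 and 5, where counting error is largest.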
